A study of Mus musculus with 6 samples.

Results

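The 6 genes of the CCN family and 4 genes of the YAP pathway were described across embryonic and adult mouse chondrocytes. The 10 genes were taken by name as a ligand family, a coactivator pair known to act on some of its genes, a DNA-binding partner of the pair and a further target: Ccn1, Ccn2, Ccn3, Ccn4, Ccn5, Ccn6, Yap1, Wwtr1, Tead1 and Ankrd1. All 10 were found among the 21902 rows with a gene symbol, and 9 had a mean of at least 1 TPM (transcript abundance per gene, scaled to the same total in every sample) over the 6 samples and entered the test. Ankrd1 was under that minimum and is given by its values.

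Chondrocytes were released from cartilage and sorted as BMPR1B+ cells that lacked CD31, CD45, Ter119 and ALP. These are markers of the endothelium, of blood cells and of the osteoblast lineage. BMPR1B is a bone morphogenetic protein receptor. The embryonic group held 3 samples taken at E16.5, a stage that the labels write as 16.5 weeks and the methods as embryonic days. The adult group held 3 samples from male B6 mice aged 2 months, and the methods name no strain for the embryos. The labels name no engineered allele and no agent for either group, and the sex of the embryos and the number of animals behind each sample are not given in the sources used here. The series calls the samples biological replicates, and the p-values measure only the spread between these samples.

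CCN proteins are secreted into the matrix, where they bind integrins, proteoglycans and growth factors, and CCN2 is known for its role in cartilage growth. YAP (Yap1) and its paralogue TAZ (Wwtr1) carry no DNA-binding domain and act on genes through TEAD transcription factors. The Hippo kinases hold YAP and TAZ in the cytoplasm, while cell spreading and actin tension let them enter the nucleus, and CCN1, CCN2 and ANKRD1 are textbook targets of the pair.

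TEAD factors bind the motif GGAATG, so this motif was sought on both strands in promoter sequences from RefSeq (GRCm38.p6). The 250 bases before the annotated start were read for each member with an entry. Entries were matched for Ccn1, Ccn6, Yap1, Wwtr1 and Ankrd1, which all lie on the minus strand. Ccn2, Ccn3, Ccn4, Ccn5 and Tead1, all on the plus strand, had no matched entry and were not searched. GGAATG or its reverse complement CATTCC stood in 12.6% of 32851 mouse promoters of this length, and in the windows of Ccn1, Yap1, Wwtr1 and Ankrd1 but not Ccn6. The windows of the coactivators Yap1 and Wwtr1 and of the target Ccn1, all called between stages, are shown whole with the motif in capitals. A match describes the letters and is not evidence of binding. All 3 genes lie on the minus strand, and each sequence runs 5′ to 3′ towards the start of transcription, from chr3:145649986-145650235 for Ccn1, chr9:8004597-8004846 for Yap1 and chr3:57575911-57576160 for Wwtr1.
Ccn1: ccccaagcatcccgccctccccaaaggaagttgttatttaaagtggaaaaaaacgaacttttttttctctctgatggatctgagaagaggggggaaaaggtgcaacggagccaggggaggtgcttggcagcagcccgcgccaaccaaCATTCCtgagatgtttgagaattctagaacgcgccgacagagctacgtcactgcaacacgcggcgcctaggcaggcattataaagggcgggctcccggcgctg
Yap1: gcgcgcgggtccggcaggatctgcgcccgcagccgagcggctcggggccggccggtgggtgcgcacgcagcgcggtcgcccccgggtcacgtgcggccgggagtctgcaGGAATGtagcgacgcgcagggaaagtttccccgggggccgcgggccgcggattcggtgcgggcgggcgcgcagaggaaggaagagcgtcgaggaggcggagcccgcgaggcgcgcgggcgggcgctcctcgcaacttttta
Wwtr1: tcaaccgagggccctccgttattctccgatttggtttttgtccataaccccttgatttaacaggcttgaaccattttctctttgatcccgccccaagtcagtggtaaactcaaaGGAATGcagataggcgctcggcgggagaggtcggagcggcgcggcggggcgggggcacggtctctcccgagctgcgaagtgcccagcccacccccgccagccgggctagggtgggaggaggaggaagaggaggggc
Ankrd1 held GGAATG at 2 places, shown with the flanking 10 bases because its window has a pair of matches, from chr19:36120039-36120064 and chr19:36119952-36119977 on the minus strand. Its window precedes the RefSeq start, whereas the GENCODE M21 span of the gene given further on begins upstream of both places and so contains them.
Ankrd1 distal: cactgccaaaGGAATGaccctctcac
Ankrd1 proximal: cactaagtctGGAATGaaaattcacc
In the Ccn1 window the motif lay on the opposite strand, 103 to 98 bases before the start, and in Yap1 it lay 141 to 136 bases before it. The AP-1 motif TGACTCA stood in 4.46% of all promoters and the serum response CArG box in 1.47%, and neither was found in the windows of these 5 genes.

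Across the table, 13125 genes were tested between stages. The spread between samples was wider in adults, with a median SD over tested genes of 0.35 against 0.26 on the log2(TPM + 1) scale. Pearson correlations across tested genes ran from 0.951 to 0.955 between embryonic samples, from 0.907 to 0.935 between adult samples and from 0.739 to 0.765 between stages. These values are across genes, which are not independent replicates. The 20 highest genes took 10.7% to 11.1% of all TPM in embryonic samples and 14.6% to 17.7% in adult samples. All 9 chondrocyte markers (Sox9, Col2a1, Acan and others) reached 10 TPM in every embryonic sample. In every adult sample 8 of 9 did so, Matn3 being the exception. Their summed level was 23366 to 24861 TPM in embryos against 7923 to 10782 TPM in adults. Col2a1 was the highest of them in every sample, at 14154.5 to 15251 TPM in embryos and 3166 to 7084 TPM in adults. By the test described below 6 markers were lower and 1 higher, beside 21.4% and 23.9% of all tested genes. The higher one was Sox9, at 392 to 465 TPM in embryos and 589 to 901 TPM in adults. Acan did not pass, at 1018 to 1306 TPM in embryos and 1265 to 2672 TPM in adults.

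Of the 9 members tested, 6 passed an adjusted p under 0.05 in limma with Benjamini-Hochberg adjustment, where 45.3% of all tested genes passed. Ccn2 alone among the members rose in adults, where 23.9% of tested genes rose, and Ccn1, Ccn3, Ccn4, Yap1 and Wwtr1 fell, where 21.4% of tested genes fell. The stage ranges of 7 of 9 members did not overlap, against 56.5% of all tested genes. The median difference of the members was -1.03 on the log2(TPM + 1) scale (adult minus embryonic), beside 0.16 over all tested genes. That median over all genes was 0.03 under median-of-ratios scaling, and 0.25 without the 20 highest genes. In these bulk samples, fewer cells of a type and less RNA per cell cannot be told apart.

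**Figure D1:**
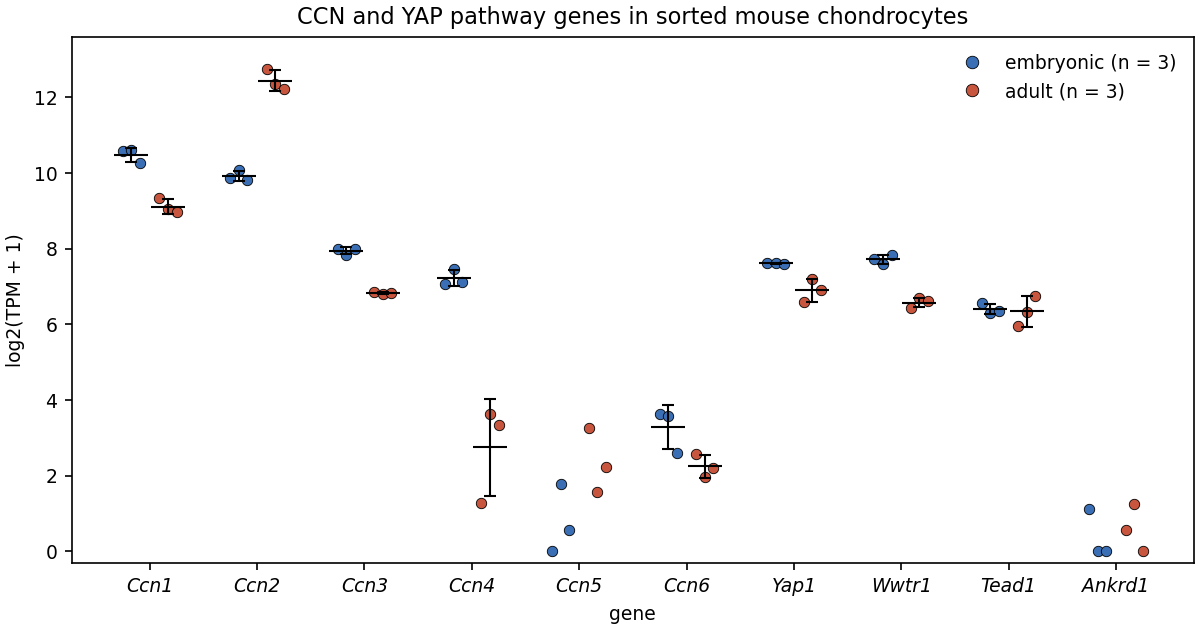
Level of each of the 10 genes as log2(TPM + 1) in the 3 embryonic and 3 adult samples, 1 point per sample. Bars give the mean ± SD of a stage for genes above 0 TPM in every sample. Ccn2 is the member whose adult points stand above its embryonic points by the widest gap (12.44 ± 0.28 against 9.92 ± 0.13), and Ccn4 the member whose adult points fall farthest below.

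Ccn2, connective tissue growth factor, occupies chromosome 10 (GRCm38, as for the genes that follow) between 24595442 and 24598683. Its level was 941, 1071 and 904 TPM in the embryonic samples and 6933, 5237 and 4748 TPM in the adult samples. All 3 adult values lay above the highest embryonic value, with no overlap. Ccn2 rose by 2.52 on the log2 scale (SE 0.164, 95% interval 2.15 to 2.89, limma adjusted p = 9.89e-06), a 5.74-fold difference. It ranked 8th, 11th and 11th among all rows of the adult samples and 134th, 129th and 145th among those of the embryonic samples.

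Ccn1, the matricellular protein CYR61 that binds integrins, lies on chromosome 3 from 145646976 to 145649981. Its level was 1519.5, 1558 and 1225 TPM in embryos and 642, 529.8 and 498 TPM in adults. It was the highest member in embryos, stood below Ccn2 in every adult sample, and its ranges did not overlap between stages. Ccn1 fell by 1.36 on the log2 scale (SE 0.147, limma adjusted p = 1.46e-04), a 2.58-fold lower level. Both it and Ccn2 are targets of YAP and TAZ, and they moved in opposite directions. Under the 16 alternatives that gave a value the difference of Ccn1 ran from -1.51 to -1.10 and under 15 alternatives that of Ccn2 from 2.36 to 2.64.

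Ccn3, the NOV protein known to restrain proliferation in several cell types, lies on chromosome 15 from 54745702 to 54754039. Its level was 254, 229 and 255 TPM in embryos and 115, 109.8 and 113 TPM in adults, so that the 3 adult samples lay within a few TPM of each other. Ccn3 fell by 1.12 on the log2 scale (SE 0.118, limma adjusted p = 1.31e-04).

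Ccn4, known as WISP1, a Wnt-induced member expressed in skeletal tissue, lies on chromosome 15 from 66891320 to 66923201. Its level was 133, 176 and 139 TPM in embryos and 1.43, 11.3 and 9.16 TPM in adults. No adult sample came near the embryonic range, but the adult samples were spread far more widely, with an SD of 1.28 against 0.21 on the log2 scale. Ccn4 fell by 4.47 on the log2 scale (SE 0.536, 95% interval -5.69 to -3.25, limma adjusted p = 2.62e-04), the widest fall among the members, and by 3.74 to 4.91 under the alternatives.

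The lower-level family members did not pass the test. Ccn5, known as WISP2, which lacks the C-terminal domain of the other CCN proteins, lies on chromosome 2 from 163820861 to 163833146. It was listed at 0 TPM in embryonic sample 1 and at 2.44 and 0.486 TPM in the others, against 8.54, 1.96 and 3.73 TPM in adults, and the ranges overlapped (log2 difference 1.57, SE 0.637, limma adjusted p = 0.0735). Without embryonic sample 2 that difference was 2.07 with a limma adjusted p of 0.0425. Ccn6, whose human counterpart is mutated in a childhood cartilage disease, lies on chromosome 10 from 39150970 to 39163794. Its level was 11.4, 11.0 and 5.11 TPM in embryos and 4.97, 2.89 and 3.62 TPM in adults. The ranges did not overlap by a narrow margin, and the log2 difference was -1.03 (SE 0.423, limma adjusted p = 0.0756). Without embryonic sample 3 it was -1.36, with a limma adjusted p of 0.0426.

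Beside the levels, the coding sequences of the family share a layout. The longest coding transcript of each CCN gene has 5 exons in GENCODE M21, and Ccn5 has the shortest coding sequence, 753 bases against 1044 to 1137 bases in the other 5. The identity of coding sequences over the 15 pairs was 61.0% to 67.5%, with a longest shared run of 18 bases. Yap1 and Wwtr1 were 70.2% identical, with a longest shared run of 15 bases. How reads shared by paralogues were split in the deposited values was not tested.

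The makeup of the family within a sample does not change when a common factor scales all genes of that sample. The share of each gene in the summed TPM of the 6 CCN genes was therefore taken. Quantile normalization shifts genes unequally, and the shares were not recomputed under it. Ccn2 held 32.9%, 35.2% and 35.7% of it in embryos and 90.0%, 88.9% and 88.3% in adults, a mean of 34.6% ± 1.48 (SD, n = 3) against 89.1% ± 0.842 (SD, n = 3). The adult samples lay within a narrow band far from the embryonic one, a difference of 54.5 percentage points (exact two-sided permutation test p = 0.1, the smallest that 3 against 3 samples allow). Ccn1 held 53.1%, 51.1% and 48.4% in embryos and 8.33%, 8.99% and 9.26% in adults. The ratio of Ccn2 to Ccn1 was 0.620, 0.687 and 0.738 in embryos and 10.8, 9.89 and 9.54 in adults, so Ccn1 exceeded Ccn2 in every embryonic sample and Ccn2 exceeded Ccn1 in every adult sample. The mean share of Ccn3 was 8.84% in embryos and 1.82% in adults and that of Ccn4 5.31% and 0.127%, both with the same exact p = 0.1. The summed level of the family was 2860, 3048 and 2529 TPM in embryos and 7705, 5893 and 5375 TPM in adults. Without Ccn2 the sum of the other 5 genes was 1918, 1977 and 1625 TPM in embryos and 772, 656 and 627 TPM in adults, the reverse order.

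**Figure D2:**
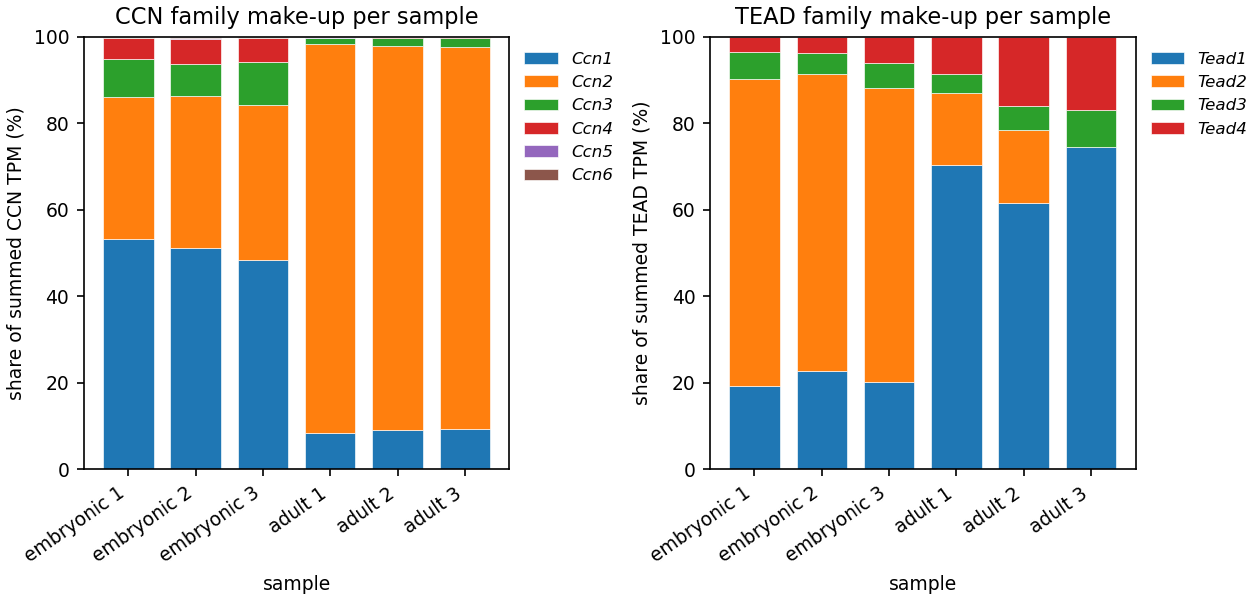
Share of each gene in the summed TPM of its family, in percent, for the 3 embryonic and 3 adult samples, as stacked bars for the 6 CCN genes and for the 4 TEAD genes. Ccn2 takes 88.3% to 90.0% of the CCN bar in adults and 32.9% to 35.7% in embryos. Ccn5 and Ccn6 held at most 0.400% each and are too thin to see.

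Yap1, the coactivator YAP, lies on chromosome 9 from 7931999 to 8004596, and its level was 197, 194 and 192 TPM in embryos and 95.6, 146 and 119 TPM in adults. Its embryonic samples were nearly equal, while the adult samples were spread, and all 3 adult samples lay below. Yap1 fell by 0.71 on the log2 scale (SE 0.164, limma adjusted p = 0.00757), a 1.64-fold lower level. Wwtr1, which encodes TAZ, lies on chromosome 3 from 57455649 to 57575910, and its level was 210.4, 193 and 225 TPM in embryos and 85.4, 102 and 96.7 TPM in adults. Wwtr1 fell by 1.14 on the log2 scale (SE 0.133, limma adjusted p = 2.30e-04), a 2.20-fold lower level. The log2 ratio of Wwtr1 to Yap1 was 0.09, -0.01 and 0.23 in embryos and -0.16, -0.51 and -0.30 in adults. All 3 adult samples had less Wwtr1 than Yap1 by this ratio (difference -0.43, exact two-sided permutation test p = 0.1, the smallest possible).

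Tead1, a DNA-binding partner of YAP and TAZ, lies on chromosome 7 from 112679318 to 112906807. Its level was 93.0, 77.6 and 81.2 TPM in embryos and 60.7, 79.2 and 107 TPM in adults, and the ranges overlapped. The log2 difference was -0.06 with a 95% interval of -0.54 to 0.42 (limma adjusted p = 0.828). The sign was positive without embryonic sample 1 (0.01) and without adult sample 1 (0.14). The share of Tead1 within the 4 TEAD genes was nonetheless higher in every adult sample than in any embryonic one. Its share of summed TEAD TPM was 19.2%, 22.6% and 20.2% in embryos and 70.3%, 61.6% and 74.6% in adults, a difference of 48.2 percentage points (exact two-sided permutation test p = 0.1).

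Tead2, the TEAD factor most abundant in embryos, was listed at 345, 237 and 273 TPM in embryos and at 14.5, 21.7 and 0 TPM in adults. It fell by 5.32 on the log2 scale (SE 0.975, limma adjusted p = 0.00251). The size rests in part on adult sample 3, at 0 TPM: the difference was -3.91 without it (limma adjusted p = 4.76e-05) and -6.47 with a pseudocount of 0.1. Tead3 was 30.5, 16.6 and 23.7 TPM in embryos and 3.69, 7.02 and 12.2 TPM in adults and fell by 1.60 (limma adjusted p = 0.0144), a call lost without embryonic sample 1 (adjusted p = 0.0692) or 3 (adjusted p = 0.0543). Vgll3, a vestigial-like cofactor that binds TEAD factors in place of YAP, was 6.10, 3.30 and 8.61 TPM in embryos against 0.203, 0.0525 and 1.01 TPM in adults and fell by 2.28 (limma adjusted p = 0.00653). Of the 7 other TEAD and vestigial-like genes listed, 5 were tested, 3 fell and 0 rose in limma, also at an unadjusted p under 0.05 (0 higher). Over all tested genes 21.4% fell and 23.9% rose, and 5 genes are few to set beside these shares. Tead4 and Vgll4 gave differences of -0.15 and 0.02. The median of the 5 was -1.60 against 0.16 over all tested genes.

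Ankrd1, a nuclear ankyrin repeat protein induced by YAP and by stretch in muscle, lies on chromosome 19 from 36111961 to 36120099. It was listed at 1.16, 0 and 0 TPM in embryos and at 0.483, 1.40 and 0 TPM in adults. These levels were near 0 in both stages, the ranges overlapped and no difference was tested.

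By mean level per transcript length (TPM), the order in embryos was Ccn1, Ccn2, Ccn3, Wwtr1, Yap1, Ccn4, Tead1, Ccn6, Ccn5 and Ankrd1. The ranges of Wwtr1 and Yap1 overlapped there, as did those of Ccn5 and Ankrd1. In adults the order was Ccn2, Ccn1, Yap1, Ccn3, Wwtr1, Tead1, Ccn4, Ccn5, Ccn6 and Ankrd1. The neighbours Yap1 and Ccn3, Wwtr1 and Tead1, Ccn4 and Ccn5, and Ccn5 and Ccn6 overlapped in adults.

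Of 11 receptors that bind CCN proteins, 10 were tested, 2 rose and 4 fell, beside 23.9% and 21.4% of all tested genes, with a median of -0.41. The rising count was close to that share. Lrp1, a large endocytic receptor for CCN2, was 272, 187 and 226 TPM in embryos and 896, 892 and 911 TPM in adults and rose by 1.99 (SE 0.147, limma adjusted p = 1.92e-05). Its adult samples were nearly equal. Sdc4, the proteoglycan syndecan 4, was 439, 482 and 488 TPM in embryos and 1395, 944 and 939.8 TPM in adults and rose by 1.19 (limma adjusted p = 5.93e-04). Igf2r, which carries lysosomal enzymes and takes up IGF2, was 383, 308 and 336 TPM in embryos and 66.0, 78.0 and 55.1 TPM in adults and fell by 2.36 (limma adjusted p = 1.34e-05). The integrin subunits Itga6 and Itga5 fell by 1.60 and 1.21 (limma adjusted p = 1.17e-04 and 7.55e-05).

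Among 22 regulators of the Hippo branch upstream of YAP and TAZ, 3 rose, 6 fell and 13 did not pass, with a median of -0.31. The 9 calls among 22 genes were close to the 45.3% called over all tested genes. Stk4, the kinase MST1, was 47.4, 34.3 and 54.5 TPM in embryos and 61.7, 104 and 76.0 TPM in adults (log2 difference 0.81, limma adjusted p = 0.0246). Lats2, the kinase that phosphorylates YAP, was 74.9, 65.1 and 75.5 TPM in embryos and 107, 102 and 93.7 TPM in adults (0.48, limma adjusted p = 0.0220). The call for Stk4 was lost without embryonic sample 1 (limma adjusted p = 0.0591) or 2 (0.0904) or adult sample 2 (0.0795) or 3 (0.0518), and that for Lats2 without embryonic sample 2 (0.07). Taok3, a kinase that activates MST kinases, rose by 0.98 (limma adjusted p = 0.00541). Fat4 and Dchs1, the protocadherins that bind each other between cells, and Amot, a scaffold that binds YAP, fell farthest. Fat4 was 49.5, 36.3 and 46.0 TPM in embryos and 3.63, 3.31 and 4.01 TPM in adults and fell by 3.26 (SE 0.273, limma adjusted p = 3.77e-05). Amot fell by 2.43 and Dchs1 by 2.31 (limma adjusted p = 0.00148 and 3.22e-04).

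The 19 other YAP target genes came from a published signature of cancers, which did not use these samples. Of them 4 rose, 8 fell and 7 did not pass, with a median of -0.21. The 4 that rose among 19 were close to the 23.9% of all tested genes that rose, and 21.4% of all tested genes fell. Lats2, Amotl2 and Ptpn14 are also in the Hippo list. Nt5e, the ecto-nucleotidase CD73, was 127, 142 and 146 TPM in embryos and 348, 399 and 342 TPM in adults and rose by 1.38 (limma adjusted p = 5.71e-05). Gadd45a, a stress-induced growth arrest gene, rose by 1.33 and Crim1, a cell surface binder of bone morphogenetic proteins, by 1.12 (limma adjusted p = 1.38e-04 and 0.00105). F3, tissue factor, was 187, 211 and 226 TPM in embryos and 22.4, 26.8 and 27.6 TPM in adults and fell by 2.98 (SE 0.156, limma adjusted p = 2.71e-06). Fjx1, a Golgi kinase relative that acts on protocadherins in flies, fell by 2.75 (limma adjusted p = 1.23e-04). Igfbp3, a binder of insulin-like growth factors, was 123, 90.2 and 116 TPM in embryos and 4.33, 5.29 and 1.78 TPM in adults. The median of the signature ran from -0.35 to -0.04 over the scalings tried.

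Actin genes and SRF, a factor that shares targets with YAP, formed the last pathway list. Of 18 genes, 1 rose and 11 fell, beside 23.9% and 21.4% of all tested genes, with a median of -0.71 (-0.85 to -0.61 over the scalings). The 11 falls were 7 without embryonic sample 1 and 7 without embryonic sample 3. Flna, which crosslinks actin, was 304, 266 and 275 TPM in embryos and 798, 713 and 703 TPM in adults and rose by 1.39 (limma adjusted p = 3.86e-05). Cnn2, an actin-binding calponin, was 41.8, 42.3 and 48.7 TPM in embryos and 16.3, 5.68 and 13.1 TPM in adults and fell by 1.94 (limma adjusted p = 0.00238). Acta2, smooth muscle actin, fell by 2.32 (limma adjusted p = 0.00639), from 5.85, 15.4 and 4.75 TPM to 0.385, 0.796 and 1.07 TPM. Myl9, a myosin light chain, was 20.9, 23.0 and 15.2 TPM in embryos and 1.23, 0 and 0 TPM in adults (limma adjusted p = 2.26e-04).

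**Figure D3:**
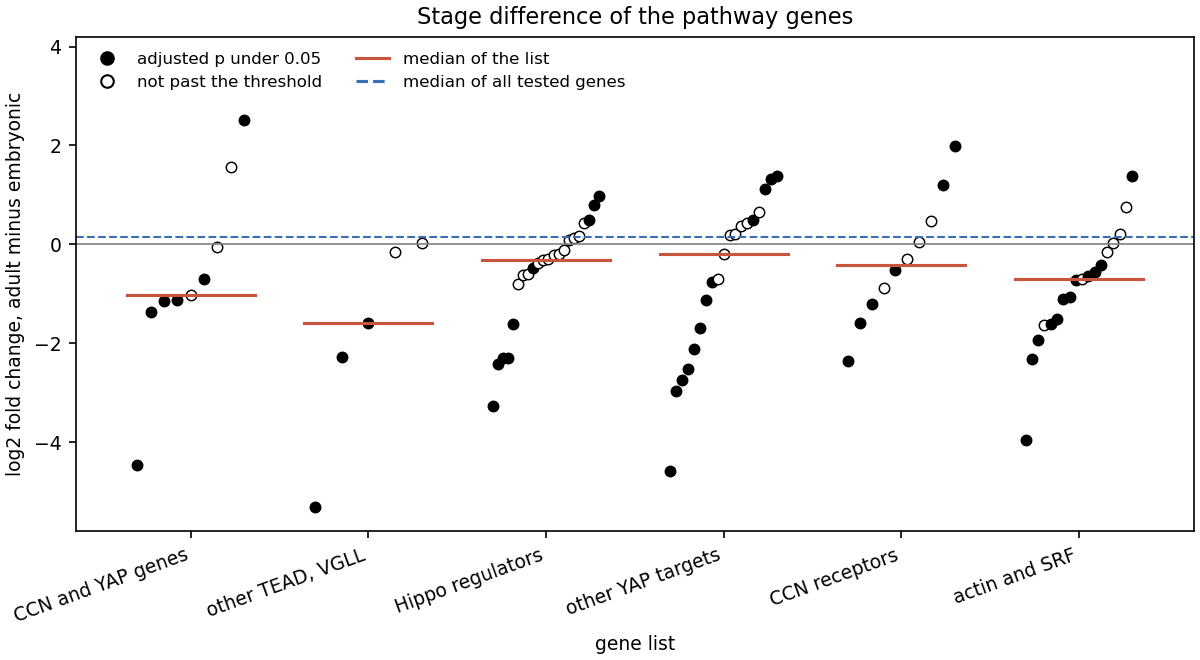
Log2 difference (adult minus embryonic) of each tested gene in the members and 5 lists of the pathway, with filled points for an adjusted p under 0.05 in limma, red lines for the list median and a dashed line for the median of all tested genes (0.16). The members' median lies at -1.03 and that of the YAP targets at -0.21.

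Genes with a pattern most like the rising member with the largest change and the falling member with the largest change were found by Euclidean distance of centred log2(TPM + 1) over the 6 samples. For Ccn2 these were Plxdc2, Trpm6 and Larp6, at distances of 0.305, 0.320 and 0.329. Plxdc2 was 81.2, 84.9 and 69.6 TPM in embryos and 562, 504 and 459 TPM in adults. For Ccn4 they were Tnc, which encodes tenascin C, Aurkb and Birc5, at 0.532, 0.963 and 0.987. Tnc was 597, 575 and 522 TPM in embryos and 7.66, 43.8 and 50.7 TPM in adults. Its lowest adult value was in the same sample as that of Ccn4, which the choice by distance favours. The distances describe 6 points that share their libraries and carry no test.

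Markers of other cell types were read beside these results, each list as the range over samples of its summed TPM, embryos before adults. The counts of called markers stand beside 23.9% of all tested genes higher and 21.4% lower. At an unadjusted p under 0.05 in limma, 3774 of all 13125 tested genes were higher and 3215 lower. The lists are short to set beside these shares, and no list was tested as a set. The 7 tendon and fibroblast markers summed to 804 to 979 TPM in embryos and 269.5 to 357 TPM in adults, and 4 of the 7 fell, while 0 rose in limma and 0 at an unadjusted p under 0.05. Osteoblast markers summed to 4922 to 6007 TPM and 553 to 1069 TPM, with 3 higher and 2 lower of 6. Col1a1, a collagen of many connective tissues, made up most of the embryonic sum and fell, from 4862 to 5971 TPM in embryos to 170.4 to 637 TPM in adults. Bglap, Ibsp and Alpl rose. Bglap stood at 0 TPM in each embryo sample against 15.8 to 83.9 TPM in adults, and Ibsp at 0.148 to 29.6 and 235 to 316 TPM. Alpl, which encodes the ALP of the sort, stood at 14.4 to 17.9 and 32.7 to 38.6 TPM. Dmp1 fell, from 10.1 to 16.3 TPM in embryos to 0.0611 to 3.51 TPM in adults (log2 difference -2.92, limma adjusted p = 0.00495). Sp7 did not pass (log2 difference -0.58, limma adjusted p = 0.45). Pericyte markers summed to 332 to 367 TPM and 177 to 192 TPM, with 1 higher and 3 lower of 4 tested. Leukocyte markers summed to 5.69 to 14.2 TPM and 21.03 to 75.6 TPM, with 1 higher of 4 tested in limma and 3 higher at an unadjusted p under 0.05. All 4 log2 differences were positive, from 1.265 to 2.411. Muscle markers summed to 436 to 496 TPM and 253 to 2356 TPM, with 2 lower and 0 higher of 8 tested. Tnnt1 made up most of the sum in every sample. It stood at 334 to 367 TPM in embryos and at 344, 250 and 2349.6 TPM in adult samples 1, 2 and 3. The 2 lower were Des, from a mean of 48.6 TPM to 0.925 TPM, and Tnni2, from 40.1 TPM to 0.344 TPM. Endothelial markers summed to 10.9 to 34.1 TPM and 5.12 to 13.9 TPM, with 1 lower of 3 tested. Erythroid markers overlapped, at 7.77 to 257 TPM and 11.9 to 43.6 TPM, and 0 of 4 tested passed in limma or at an unadjusted p under 0.05. The 15 genes that tissue digestion is known to raise, Fos and Egr1 among them, summed to 4544 to 5212 TPM in embryos and 4610 to 6122 TPM in adults, with 5 higher and 5 lower. The part of these markers in the differences of the CCN and YAP genes was not tested.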

How the data were processed

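RNA was measured in 3 embryonic and 3 adult samples of sorted mouse chondrocytes. Per the labels and methods, cDNA was amplified from sorted cells, sequenced as single-end reads, mapped to GRCm38 with RefSeq annotation and quantified with RSEM, whose version is not given in the sources used here. The authors deposited 1 value per gene and sample, log2(TPM + 1). TPM keeps no read depth, so no counting interval can be given, and the count-based EBSeq of the study was not run. The extract protocol and the library label name different kits.

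Genes averaging 1 TPM or more over the 6 samples were tested between stages with limma 3.58.1 (lmFit, eBayes with trend, R 4.3.3) on the log2 values, with Benjamini-Hochberg adjustment over 13125 genes and a threshold of 0.05. Fold changes are on the log2(TPM + 1) scale, which understates changes of low genes. Shares within a sample were compared with exact permutation tests (scipy 1.17.1). The fit was also run on simulated data with far fewer changed genes than were called here. That run checks the code and does not measure the error of these calls. Coding sequences came from GENCODE M21. Named genes were all 10 members and, per pathway list, up to 3 with the largest rise and up to 3 with the largest fall among those called whose ranges did not overlap, plus the 3 genes nearest in pattern to the members with the largest rise and fall. The members and lists were chosen with earlier results of these data known. The alternatives were another pseudocount, filters, scalings, variance settings, threshold, a replicate block and leaving out each sample.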

Additional observations from a re-analysis of the deposited data

How the results depend on the processing

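Of 17 alternatives, 16 kept the number of called genes within 1.5 times of 5949, and it was 3718 at an adjusted p under 0.01 (1855 higher, 1863 lower). Leaving out 1 sample gave 4603 to 5550 called genes. Ccn1, Ccn2, Ccn3, Ccn4, Yap1 and Wwtr1 kept their direction and call under every alternative that gave a value. Ccn2 has no value without the 20 highest genes, being one of them, so the 19 others were left out in an alternative chosen after seeing the data. Tead1, not called, turned to 0.034 without the 20 and 0.026 without the 19, and ran from -0.27 to 0.14 with 1 sample left out. Ccn5 ran from 1.12 to 2.07 and Ccn6 from -1.36 to -0.85 with 1 sample left out, each past the threshold in 1 such fit, and Ccn5 was 2.95 with a pseudocount of 0.1 (limma adjusted p = 0.089). That pseudocount took the fall of Vgll3 to -3.94 and of Myl9 to -6.36. Lats2 lost its call under median-of-ratios scaling (limma adjusted p = 0.0738) and without the variance trend (0.0635), and Stk4 lost it without the trend (0.0604). With the replicate number as a block, limma called 5430 genes and 6 members, and among the named genes the block changed the call of Lats2 (adjusted p = 0.0537). Samples with the same number did not deviate together (correlations of -0.0223 to -0.00884). No pairing by number was seen, and these values alone cannot settle whether a number marks a shared preparation. With 3 samples a stage and no depth in TPM, precision for genes near 0 such as Ccn5 and Ankrd1 is low.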
